A study of Mus musculus with 172 samples.

Results

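The 19 E4.5 cells without OCT4 (MUT) were compared with the 29 E4.5 primitive endoderm (PrE) cells of embryos that carry it, 48 of the 172 single cells of the series. All were inner cell mass (ICM) cells freed of trophectoderm (TE) by immunosurgery and read one by one with Smart-seq2, a full-length RNA-seq method for single cells. The MUT cells carry 2 null alleles of Pou5f1, the gene for OCT4, and come from 2 embryos (embryo 3 with 11 cells, embryo 8 with 8). The PrE cells come from 4 heterozygous embryos (HET; embryo 1 with 5 cells, embryo 2 with 7, embryo 4 with 5, embryo 7 with 5) and 2 wild type embryos (WT; embryo 5 with 5 cells, embryo 6 with 2). The parents were Oct4+/- mice of mixed genetic background, so the mothers of MUT embryos carried 1 wild type allele. The 37 epiblast (EPI) cells of the same 6 control embryos serve below as a further point of reference. Each embryo's cells were pooled into 1 sum of raw counts per group, so that embryos are the replicates.

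The PrE is the outer layer of the late ICM and forms the parietal and visceral endoderm of the yolk sac. In the blastocyst its precursors express GATA6 and answer FGF4 from the EPI through FGFR1 and FGFR2, then switch on SOX17, GATA4 and, later, SOX7, lay down a basement membrane of laminins and type IV collagen, and take up maternal proteins through megalin and cubilin. EPI cells keep NANOG and make FGF4. The question addressed here is which of these steps were reached in cells that had lost OCT4, and what those cells expressed that PrE did not.

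A MUT cell had 907729 to 2112386 counts in genes and a PrE cell 611759 to 2760717, and the embryo sums held 12403874 and 17006515 counts for MUT and 2736296 to 13356319 for PrE. The median cell had 6514 genes with a count and 4.65% mitochondrial counts in MUT, against 7169 genes and 3.22% in PrE. Their part in the results was not tested. All E4.5 cells were on 1 plate. Of 13 markers of blood, stroma and uterine epithelium, 10 did not pass the filter on low counts and none of the other 3 (Muc1, Cd68 and Lum) passed the test. Their summed level was 65.5 and 108 CPM (counts scaled to a common library size by TMM) in MUT and 0 to 29.8 in PrE, with Ptprc, Hbb-bs, Col1a2 and Ltf at 0 in both. MUT embryo 3 and PrE embryo 5 had no Eif2s3y counts, so both groups held embryos with and without this Y-linked gene. Between MUT and PrE, 12246 genes entered edgeR's quasi-likelihood test, of which 213 (1.74%) were higher and 253 (2.07%) lower in MUT at an adjusted p under 0.05. The study assigned control cells to PrE from these same transcriptomes, whereas MUT cells were not selected. The lists were therefore also compared with the whole ICM of the control embryos (EPI and PrE cells summed), where 14105 genes were tested, 3.1% were higher and 4.27% lower. The counts of called members in every list below stand beside these shares of all genes. The lists were chosen with earlier results of these data known, and some hold genes given beforehand as markers of these cells. Their counts are therefore a description. Of the genes described below as called against PrE, Col4a1, Sparc, Hspg2, Serpinh1, Colgalt1, Cubn, Lrpap1, Pth1r, Pla2g10, Trim43a, Trim43b, Slc39a2, Ceacam1 and Gpr161 did not pass against the whole ICM (adjusted p 0.0521 to 0.491), and are marked where they appear. These comparisons share the MUT sums, and the whole ICM holds the same PrE cells.

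Pou5f1 had 0 counts in all 19 MUT cells. In the PrE sums it lay at 159, 48.2, 68.3, 57.3, 129 and 98.1 CPM (embryos 1, 2, 4, 5, 6 and 7, the order used for every PrE gene below), with counts in 25 of 29 cells. No PrE sum came near 0. Relative to a floor of 3 counts over the MUT cells, Pou5f1 was at least 782-fold lower in MUT (log2 fold change −12.80 ± 1.19 SE, adjusted p = 0.000845). Fitted fold changes of genes at 0 depend on the prior count, so for such genes the bound is the measure of size.

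The 4 PrE markers given for these cells were nearly empty or far lower in MUT, and the 3 given for MUT cells were nearly empty in PrE. Emb, which codes for the surface glycoprotein embigin, lay at 598, 1035, 766, 795, 362 and 1079 CPM in PrE, against 0.0615 CPM, a single count, in MUT embryo 3 and 0 in MUT embryo 8. Flrt3, a transmembrane protein that binds FGF receptors and latrophilins, had 776 ± 194 CPM in PrE (SD, n = 6) and 0 and 0.339 CPM in MUT. Sox7 is described with the regulators and Lama1 with the basement membrane. Adh1, an alcohol dehydrogenase that oxidizes retinol, had 981 and 715 CPM in MUT and 5 counts in all PrE cells together. Slc1a1, the glutamate and cysteine transporter EAAC1, had 347 and 443 CPM in MUT and at most 0.422 in a PrE sum. The tight junction protein gene Cldn3 had 280 and 106 CPM in MUT and a single count in PrE. The groups overlapped in none of the 7, as in 14.3% (MUT above) and 7.81% (MUT below) of all genes tested. Each passed the test in the full fit and in all 6 fits that leave out 1 PrE embryo. The 7 were given as markers of these cells, so these results describe them and are no separate support. Against the whole control ICM the same 4 were lower and the same 3 higher, with Emb at −13.22 (adjusted p = 0.00127) and Adh1 at 7.72 (adjusted p = 0.0118) on the log2 scale.

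Among the PrE transcription factors, Gata6 was present in MUT and most others were at or near 0. Of the 8 factors listed, 5 were lower in MUT (background 2.07%) and none higher, and the same number, 5, were lower against the whole ICM. The median log2 fold change was −11.22, or −8.49 with genes at 0 set to their bound, beside 0.05 over all genes tested. Sox7, Foxa2, Foxq1 and Hnf4a had 0 counts in every MUT cell. For each of these the exact 95% interval of 0 of 19 cells reaches 17.6%, which covers counting error only.

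**Figure D1:**
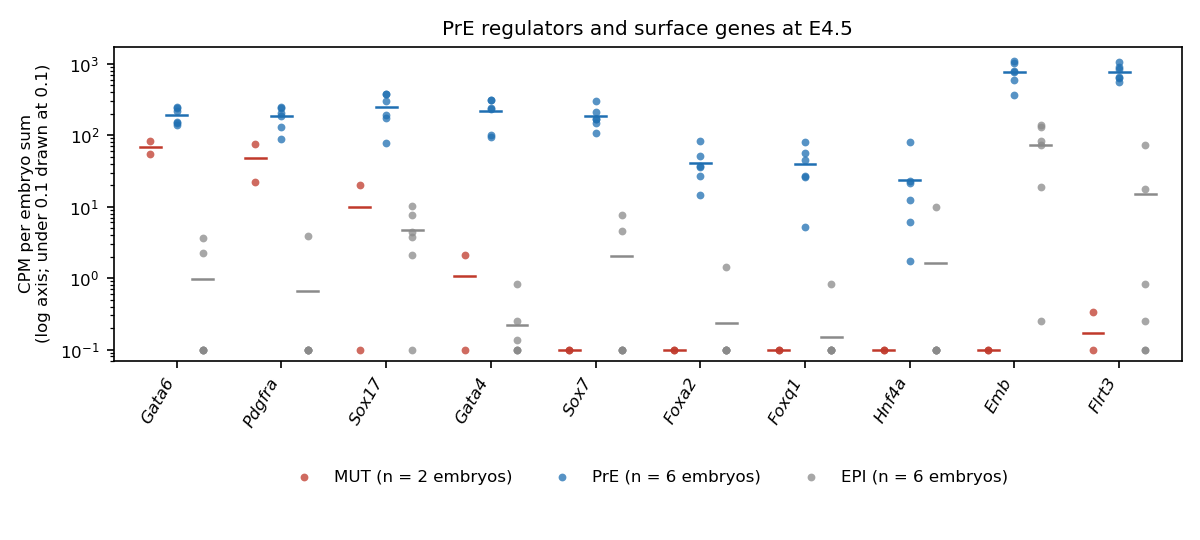
Level of PrE regulators and of 2 surface genes in each embryo sum at E4.5 (vertical axis, CPM on a log scale, values under 0.1 drawn at 0.1) for MUT (2 embryos), PrE (6) and EPI (6). Points are embryos and bars are group means. MUT sums of Gata6 and Pdgfra lie between those of PrE and EPI, whereas the 4 genes from Sox7 to Hnf4a are at 0 in both MUT embryos.

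Gata6, the earliest of these factors, was detected in MUT at 82.0 and 53.7 CPM, against 247, 137, 219, 155, 148 and 239 CPM in PrE and at most 3.59 in an EPI sum. The groups did not overlap, but the difference of −1.49 ± 0.36 on the log2 scale did not pass the test (adjusted p = 0.0554, and 0.0477 without PrE embryo 6). Against the whole ICM it was −0.39 (adjusted p = 0.729). The sums hide a split among cells. At 10 CPM or more, Gata6 was present in 9 of 19 MUT cells, 29 of 29 PrE cells and 2 of 37 EPI cells, and within the positive cells the median was 153 CPM in MUT and 190 in PrE. In a summed sample alone, fewer expressing cells and less RNA per cell cannot be told apart. Here both values are given per cell.

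Gata4, a further GATA factor of PrE, had 0 and 2.12 CPM in MUT and 310, 244, 307, 102, 94.3 and 233 CPM in PrE (log2 fold change −7.71 ± 1.39, adjusted p = 0.0154). Sox17, which drives endoderm differentiation, had 0.0615 and 19.9 CPM in MUT and 374, 304, 383, 193, 77.7 and 177 CPM in PrE, a 33.5-fold difference that did not pass the test (−4.67 ± 1.49, adjusted p = 0.119). One cell of MUT embryo 8 held all of the Gata4 counts and 99.6% of the Sox17 counts of the MUT cells. Without that embryo Sox17 was at −11.70 (adjusted p = 0.00587). The cell had 173 CPM of Gata6, 127 of Sox17, 13.5 of Gata4, 46.1 of Pdgfra and 300 of Lama1, and also 114 CPM of Nanog and 222 of Gata3. It had no count of Sox7, Emb or Flrt3.

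Sox7 marks more advanced PrE. Its PrE sums were 149, 167, 300, 211, 170 and 106 CPM and its EPI mean was 2.05 CPM, so that MUT was at least 1818-fold lower (adjusted p = 0.000177). Foxa2, a forkhead factor of endoderm, averaged 41.4 ± 23.9 CPM in PrE and was at least 445-fold lower (adjusted p = 0.00483). Foxq1, another forkhead factor, averaged 40.1 ± 26.9 CPM and was at least 425-fold lower (adjusted p = 0.0125, and 0.0795 and 0.0608 without MUT embryo 3 and 8). Hnf4a, a nuclear receptor of visceral endoderm, ranged from 1.73 to 79.1 CPM over the PrE sums and missed the threshold (adjusted p = 0.0507, and 0.0283 without PrE embryo 6). Tfec, a helix-loop-helix factor related to TFEB that stood outside the list, was likewise at 0 in MUT and at 73.8, 433, 85.2, 390, 45.1 and 244 CPM in PrE (adjusted p = 0.00719, and 0.0518 without MUT embryo 3).

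The share of cells with a count was compared over embryos for the 8 factors and the 7 given markers, 14 genes since Sox7 is in both. All 14 differed with p = 0.0357 (two-sided exact permutation of the embryo labels, 28 splits), the smallest p this design allows (adjusted over the 14 also 0.0357). Gata6 had the smallest difference among the factors, 73.9% of cells per MUT embryo against every PrE cell. At 10 CPM or more, 13 of the 14 did so (adjusted p of the exact permutation test 0.0384), and Hnf4a did not (0% against 36.2%, p = 0.143). For the PrE genes, the choice of PrE cells by their transcriptomes bears on these shares. The 7 markers, Adh1, Cldn3 and Slc1a1 among them, were given for these cells, so their shares are no separate support. At 10 CPM or more a MUT cell held a median of 0 of the 8 factors (range 0 to 3), a PrE cell 7 (3 to 8) and an EPI cell 0 (0 to 3). Of the 19 MUT cells, 10 held none.

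Among the signals upstream of these factors, MUT sums held RNA of both the ligand and its receptors, the ligand in a minority of cells. Of 26 FGF and PDGF signalling genes, 25 were tested, 1 was higher and none lower in MUT (backgrounds 1.74% and 2.07%, median log2 fold change −0.20), and 1 was higher and 3 lower against the whole ICM. The ligand Fgf4, which EPI cells make, had 31 and 9.0 CPM in MUT, 0 in all 29 PrE cells and 74.6 ± 40.2 CPM in EPI. It was at least 345-fold higher in MUT than in PrE, but did not pass the test (adjusted p = 0.0777). The receptor Fgfr2 was the gene that did. It had 157 and 173 CPM in MUT, 54.7, 24.5, 50.2, 35.6, 26.7 and 39.4 CPM in PrE, and 1.82 ± 4.41 in EPI (MUT against PrE 2.10 ± 0.38, adjusted p = 0.0166; against the whole ICM 3.11, adjusted p = 0.00762). The call against PrE was lost without MUT embryo 3 (2.23, adjusted p = 0.103) or 8 (2.04, adjusted p = 0.125). Fgfr2 was at 10 CPM or more in 17 of 19 MUT and 19 of 29 PrE cells. The receptor Fgfr1 had 70.3 and 49.1 CPM in MUT, above every PrE sum (0 to 25.9), and did not pass the test (adjusted p = 0.314). Fgfr3 had 0 and 4.41 CPM in MUT and 75.2 ± 39.3 in PrE (adjusted p = 0.27). Pdgfra, the receptor that marks early PrE, had 75.3 and 22 CPM in MUT and 89.9 to 249 in PrE (−1.91 ± 0.57, adjusted p = 0.0937). It was found in 4 of 19 MUT cells, 1 of which held 64.9% of its counts. Of genes that respond to ERK, Egr1 had 44.7 and 153 CPM in MUT and 107 to 571 in PrE, Dusp6 89.4 ± 32.5 (SD, n = 2) and 15.2 ± 18.7, and Etv5 27.1 ± 1.01 and 25.9 ± 20.2, none past the test. The Etv5 mean in EPI was 302 CPM.

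Nanog, the EPI factor that opposes GATA6, was present in both MUT embryos. It had 683 and 407 CPM in MUT, 0, 0, 6.12, 0.105, 0.347 and 0.14 CPM in PrE, and 290 ± 99.9 in EPI (MUT against PrE 8.83 ± 1.42, adjusted p = 0.00877, and 0.0594 without MUT embryo 3). At 10 CPM or more it was present in 12 of 19 MUT cells, 1 of 29 PrE cells and 36 of 37 EPI cells. Both Gata6 and Nanog reached that level in 7 MUT cells, 1 PrE cell and 2 EPI cells.

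The basement membrane genes were mostly lower in MUT than in PrE. Of the 21 listed, all passed the filter, 11 were lower and 2 higher in MUT than in PrE (backgrounds 2.07% and 1.74%), with a median log2 fold change of −2.36. Against the whole ICM 7 were lower and 2 higher. Against EPI 2 were higher and 1 lower (backgrounds 2.3% and 2.62%), and 18 did not pass. The summed level of the 21 genes was 1787 and 2862 CPM in MUT, 8647 to 13610 in PrE and 907 to 1555 in EPI, so that MUT lay between the control lineages. None was at 0 in MUT.

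**Figure D2:**
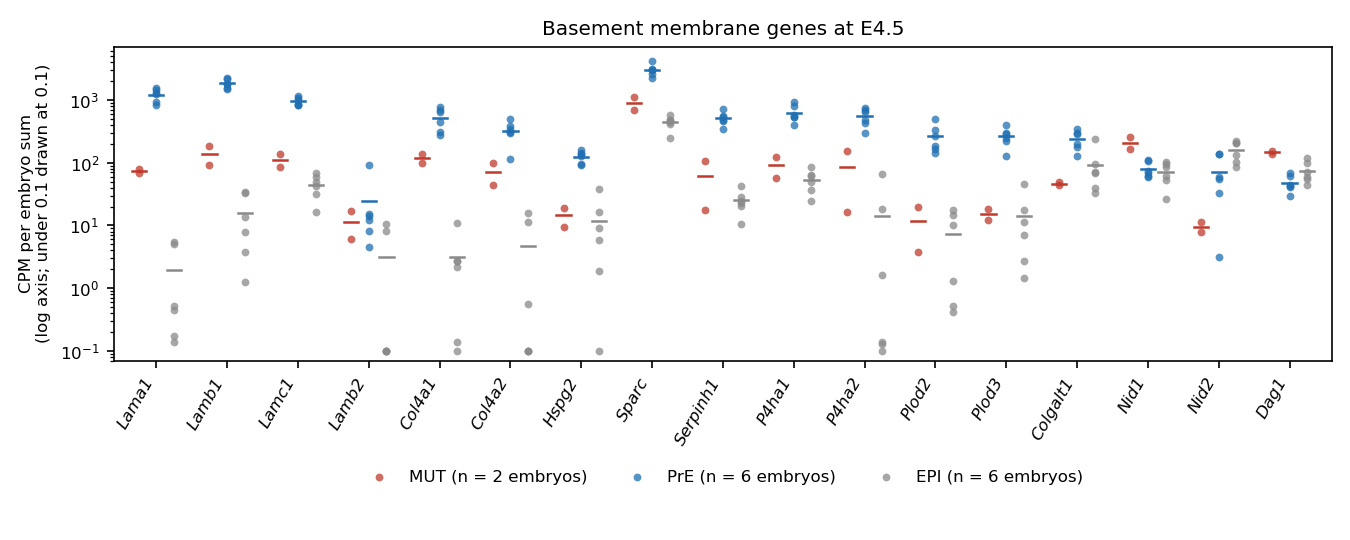
Level of 17 basement membrane genes, with the enzymes that modify collagen, in each embryo sum at E4.5 (vertical axis, CPM on a log scale, values under 0.1 drawn at 0.1) for MUT (2 embryos), PrE (6) and EPI (6). Points are embryos and bars are group means. Lama1, Lamb1 and Lamc1 lie in MUT between PrE and EPI, and Nid1 and Dag1 lie above both.

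The subunits of laminin-111, the main laminin of the early embryo, fell together. Lama1 (alpha chain) had 68.1 and 80.1 CPM in MUT against 843, 1264, 1435, 939, 1306 and 1551 in PrE and 1.95 ± 2.53 in EPI (MUT against PrE −4.04 ± 0.32, adjusted p = 0.000204). Lamb1 (beta chain) had 90.6 and 185 CPM in MUT against 1820, 1555, 2193, 1492, 1831 and 2257 in PrE (−3.75 ± 0.34, adjusted p = 0.000409). Lamc1 (gamma chain) had 140 and 84.1 CPM in MUT against 823 to 1167 in PrE (−3.10 ± 0.28, adjusted p = 0.000393). All 3 calls held in all 8 fits that leave out 1 embryo, and all 3 genes were lower against the whole ICM. The lower level was also seen within cells, fully apart for Lama1 and with some overlap for the other chains. Lama1 reached 10 CPM in 9 of 19 MUT cells, and in these it ranged from 27.9 to 333 CPM, below the lowest of the 29 PrE cells (556). Lamb1 reached 504 CPM in a MUT cell and was at least 405 in PrE cells, and Lamc1 reached 333 and was at least 225. Corrected for exon length, the 3 chains had 7.65, 13.9 and 13.5 CPM per kb in MUT and 126, 187 and 116 in PrE.

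The type IV collagen genes had smaller fold changes, a difference between genes that was not tested. Col4a1 had 99.9 and 138 CPM in MUT and 273 to 775 in PrE (−2.13 ± 0.47, adjusted p = 0.0396), and Col4a2, which is transcribed from the shared promoter in the opposite direction, 43.7 and 98.5 CPM against 117 to 500 (−2.19 ± 0.55, adjusted p = 0.0626, and 0.0137 without PrE embryo 6). Against the whole ICM Col4a1 did not pass (−1.08, adjusted p = 0.355). The Col4a1 call was lost in 6 of the 8 fits that leave out 1 embryo (without MUT embryo 3 −1.86, adjusted p = 0.265; without MUT embryo 8 −2.37, adjusted p = 0.139; without PrE embryo 1, 2, 4 or 7, adjusted p 0.0604 to 0.0738). Sparc, a collagen-binding matrix protein, had 680 and 1135 CPM in MUT and 2259 to 4115 in PrE (−1.73 ± 0.28, adjusted p = 0.00862, 0.0936 without MUT embryo 3 and 0.254 against the whole ICM). Perlecan (Hspg2) had 9.6 and 19.3 CPM in MUT and 91.4 to 159 in PrE (−3.12 ± 0.46, adjusted p = 0.00606, 0.0673 without MUT embryo 3 and 0.0864 against the whole ICM).

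The enzymes that prepare collagen for secretion made up much of the rest. Plod3, a lysyl hydroxylase that also glycosylates collagen, had 12 and 18.5 CPM in MUT and 248, 302, 292, 221, 128 and 403 in PrE (−4.13 ± 0.51, adjusted p = 0.00249), close to its EPI mean of 14.3. Plod2, another lysyl hydroxylase, had 11.6 ± 11 CPM in MUT and 265 ± 132 in PrE (adjusted p = 0.0154, and 0.064 without MUT embryo 8). Plod1, the other member of the family, had 97.3 CPM in MUT and 97.5 in PrE. The prolyl hydroxylase subunit P4ha1 was lower (−2.80 ± 0.43, adjusted p = 0.00712, and 0.0784 without MUT embryo 3). P4ha2, which had 16.4 and 153 CPM in the MUT embryos and 302 to 757 in PrE, did not pass (adjusted p = 0.0848), and without MUT embryo 8 it did (−5.07, adjusted p = 0.00587). Colgalt1, a collagen galactosyltransferase, and Serpinh1, the collagen chaperone HSP47, were lower at adjusted p of 0.017 and 0.0308, and did not pass against the whole ICM (0.096 and 0.138). The Colgalt1 call was lost without either MUT embryo (adjusted p = 0.134 and 0.123) and the Serpinh1 call without PrE embryo 1, 2, 4, 5 or 7 (0.0525 to 0.064). The members that went the other way were Nid1, which links laminin to collagen (165 and 255 CPM against 58.2 to 109), and Dag1, the laminin receptor dystroglycan (155 and 137 CPM against 29.4 to 67.7). Their calls stood close to the threshold (adjusted p = 0.0467 and 0.0455). Nid1 lost it without PrE embryo 1, 2, 4 or 5 (adjusted p 0.0776 to 0.0969) and Dag1 without any of the PrE embryos (0.0533 to 0.081). Both also lost it without either MUT embryo. Without MUT embryo 3 and 8 the log2 fold changes were 1.75 and 1.07 for Nid1, and 1.58 and 1.70 for Dag1. Neither gene's groups overlapped, as in 14.3% of all genes tested (MUT above PrE).

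Among the genes of protein uptake, both genes of cubam were lower in MUT than in PrE, and of these Amn alone was lower against the whole ICM. Of 9 endocytic receptor genes, 3 were lower in MUT and none higher (backgrounds 2.07% and 1.74%), and 2 were lower against the whole ICM (background 4.27%). Amn and Cubn together form the receptor cubam, whose membrane anchor is amnionless. Amn had 4.99 and 0 CPM in MUT and 487, 851, 659, 693, 266 and 1019 in PrE, 255-fold apart (adjusted p = 0.0131, and 0.0163 against the whole ICM). Cubn had 41.5 and 15.8 CPM in MUT and 268 to 1372 in PrE (−4.85 ± 0.85, adjusted p = 0.0135, 0.0598 and 0.0947 without MUT embryo 3 and 8, and 0.0521 against the whole ICM). Megalin (Lrp2), the partner of cubam, overlapped: 418 and 176 CPM in MUT against 86.7 to 1491 in PrE (adjusted p = 0.651), with an EPI mean of 1.13. Its chaperone Lrpap1 had 1006 and 1928 CPM in MUT and 2976 to 4558 in PrE (−1.46 ± 0.27, adjusted p = 0.0182, 0.12 without MUT embryo 3 and 0.491 against the whole ICM). The adaptor Dab2 had 222 and 514 CPM in MUT and 704 to 2892 in PrE (adjusted p = 0.0599, and 0.0196 without PrE embryo 6), beside 24.7 ± 25.7 in EPI.

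Few genes of later endoderm passed the test. Of 14 secreted carriers, 10 were tested and 1, the trypsin inhibitor gene Spink1, was lower in MUT (0 against 1.73 to 41.7 CPM, adjusted p = 0.0312, lost in 6 of the 8 fits that leave out 1 embryo, with adjusted p of 0.0598 to 0.183). Apoe, the carrier with the highest level, had 1418 and 1176 CPM in MUT and 804 to 2529 in PrE (adjusted p = 0.732), and Afp, Apob and Rbp4 had no counts in either group. Of 11 genes of parietal and visceral maturation, 9 were tested and 1 was lower. That gene, Pth1r, the receptor for parathyroid hormone-related protein found on parietal endoderm, had 79.3 and 51.6 CPM in MUT, 171 to 686 in PrE and 1.13 ± 2.66 in EPI (adjusted p = 0.0396, lost in 6 of the 8 fits that leave out 1 embryo, with adjusted p of 0.0553 to 0.231, and 0.216 against the whole ICM). Lefty1, a Nodal inhibitor, had 1 count in all MUT cells and 0.316 to 340 CPM in PrE (adjusted p = 0.0848, and 0.0388 without PrE embryo 4), and was lower in MUT against the whole ICM (−11.16, adjusted p = 0.00908). Of 16 surface adhesion genes, 14 were tested. Emb and Flrt3 were lower, and Cd9 (1.09 ± 0.18, adjusted p = 0.0109) and Epcam (1.95 ± 0.45, adjusted p = 0.0455) were higher. The latter calls were both lost without MUT embryo 3 (adjusted p = 0.069 and 0.0795) or 8 (0.0553 and 0.265), and that of Epcam also without PrE embryo 1, 2, 4 or 7 (0.0715 to 0.097). Bsg, which codes for basigin, the nearest relative of embigin, had 858 and 862 CPM in MUT and 696 to 1018 in PrE (adjusted p = 0.808).

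Over these 7 lists of the PrE programme, 96 of 105 genes were tested, 23 were lower and 5 higher in MUT (backgrounds 2.07% and 1.74%), and 68 did not pass. The given markers Sox7, Lama1, Emb and Flrt3 are among the 23, so this count includes genes known beforehand to differ. The median log2 fold change was −1.81, against 0.05 over all genes. Against the whole ICM the counts were 23 lower and 8 higher of 99 (backgrounds 4.27% and 3.1%).

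MUT was then placed between EPI and PrE over all genes that were higher in PrE than in EPI, not over chosen lists. Between PrE and EPI sums of the same embryos, 508 of 9762 genes (5.2%) were higher in PrE. Each was given a position, 0 at the EPI mean and 1 at the PrE mean of its log2 CPM. Such genes need not be particular to PrE, and the position of a sum mixes the cells of an embryo. The MUT mean had a median position of 0.515 with quartiles of 0.0378 and 0.933, and the genes spread over the scale: 184 (36.2%) lay under 0.25, 146 (28.7%) between, and 178 (35%) over 0.75. Both MUT embryos gave like medians (0.518 and 0.588). Since the same PrE and EPI cells chose these genes and set the scale, the genes were chosen again in the HET embryos alone (435 of 9985, 4.36%) and the WT sums placed on the scale with MUT. The median position was 0.884 for WT PrE, 0.0723 for WT EPI and 0.504 for MUT. Over 0.75 lay 65.7% of genes for WT PrE, 34.3% for MUT and 2.53% for WT EPI. Of the 508 genes, 129 were lower and 14 higher in MUT than in PrE (of all genes, 2.07% and 1.74%). Against EPI, 88 were higher and 8 lower in MUT (of all genes, 2.3% and 2.62%), 382 were not called and 30 not tested. Both pairs of counts bear the choice of these genes, which were high in the same PrE sums and low in the same EPI sums.

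**Figure D3:**
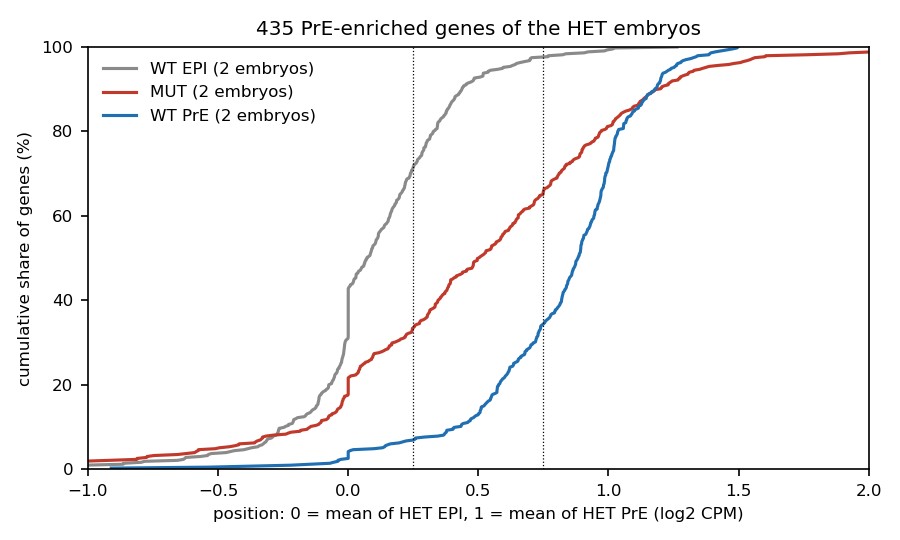
Cumulative share (vertical axis, percent) of the 435 genes called higher in PrE than in EPI in the HET embryos, by position (horizontal axis, 0 at the HET EPI mean and 1 at the HET PrE mean of log2 CPM), for the means of 2 WT EPI, 2 MUT and 2 WT PrE embryos. Dotted lines mark 0.25 and 0.75. The MUT curve runs between the WT curves, with a median of 0.504 against 0.0723 for WT EPI and 0.884 for WT PrE.

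Of the 7 PrE factors among the 508 genes, Gata6 lay at 0.827 and the other 6 under 0.25. The 10 genes over 0.75 with the highest PrE level were Ctsl, Actb, Snx2, Cd63, Slc2a3, Lamp1, Klf6, Aqp8, Fabp3 and Cd9. Cathepsin L (Ctsl), a lysosomal protease, had 3799 and 4706 CPM in MUT, 2051 to 4782 in PrE and 371 ± 150 in EPI (MUT against EPI 3.48, adjusted p = 0.000416). The water channel Aqp8 had 496 and 641 CPM in MUT, 647 to 956 in PrE and 0.694 ± 1.49 in EPI (MUT against EPI 10.33, adjusted p = 0.00158). Lamp1, a lysosomal membrane protein, had 1334 and 1380 CPM in MUT against 981 to 1116 in PrE. None of these 3 passed the test against PrE (adjusted p = 0.716, 0.312 and 0.198). Genes over 0.75 were picked from these same sums as near or above PrE and far from EPI. The tests of Ctsl and Aqp8 against EPI are thus no separate support. The tetraspanin Cd63 and the fatty acid carrier Fabp3 went past the PrE level. Fabp3, which is also in the TE list below, lay at 1.59. Of the 508 genes, 101 lay above 1. Cd63 had 4984 and 5169 CPM in MUT, 973 to 1569 in PrE and 584 ± 126 in EPI (2.01 ± 0.19, adjusted p = 0.0005). The glucose transporter Slc2a3 (GLUT3) had 2893 and 2012 CPM in MUT, 426 to 1315 in PrE and 195 ± 68.5 in EPI (adjusted p = 0.0955 against PrE, 0.0148 without PrE embryo 6).

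At the other end, 25 genes were missing from MUT altogether, defined as lower in the test, under 1 CPM in both MUT sums and at 10 CPM or more in all 6 PrE sums. Of the 25, 18 had no count in any MUT cell and so entered the test through the PrE sums alone. All 25 code for proteins and were also lower against the whole ICM. Since the whole ICM holds the PrE cells that defined the 25, this is no separate support. The EPI mean was under 1 CPM for 11 of them and 10 CPM or more for 7, Pou5f1 and Emb among the latter. Besides those already given, the highest were Dok2, an adaptor that dampens receptor tyrosine kinases (154 ± 72.7 CPM in PrE, 1 count in MUT), Gas6, the ligand of the AXL and MER receptors (120 ± 51.4 CPM), the retinol uptake receptor Stra6 (113 ± 89.1), the secreted phospholipase Pla2g12b (84.0 ± 44.9), Tspan6 (81.9 ± 81.0), the cadherin Cdh6 (67.9 ± 43.6) and the junctional adhesion molecule Jam3 (64.3 ± 31.8). Gas6 was at least 1149-fold and Stra6 at least 1219-fold lower in MUT. Of the 25 calls, 25 held without any 1 PrE embryo, 17 without MUT embryo 3 and 21 without MUT embryo 8. Tspan6 was among those lost (adjusted p = 0.056 without MUT embryo 3).

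Conversely, 44 genes were present in MUT and absent from PrE. They were higher in the test, at 10 CPM or more in both MUT sums and under 1 CPM in all 6 PrE sums. Presence was thus asked of 2 sums here and of 6 for the missing genes, so 44 and 25 are not comparable. Of the 44, 23 had no count in any PrE cell and so entered the test through the MUT sums alone. Against the whole ICM 24 of the 44 were also higher. The EPI mean was under 1 CPM for 18 and 10 CPM or more for 8, so that some are EPI genes that PrE lacks and others were low in both control lineages. Pla2g10, a secreted phospholipase, is of the first kind (158 and 77.8 CPM in MUT, 1 count in PrE, 104 ± 47.1 CPM in EPI, adjusted p = 0.208 against the whole ICM). Dppa1 is of the second, with 437 and 1088 CPM in MUT and a highest EPI sum of 0.167. In 6 of the 44, namely Il1r2, Csf3r, Aqp9, Tpsg1, Entpd1 and Gm4926, which were singled out after their values were seen, no count was found in any PrE or EPI sum. The calls of all 6 were lost without MUT embryo 3 (adjusted p 0.155 to 0.216) and without MUT embryo 8 (0.0932 to 0.224), that of Il1r2 also without PrE embryo 2 (0.0515), and those of Csf3r, Tpsg1 and Gm4926 without several PrE embryos (0.0509 to 0.0783). The groups behind the fixed lists follow.

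**Figure D4:**
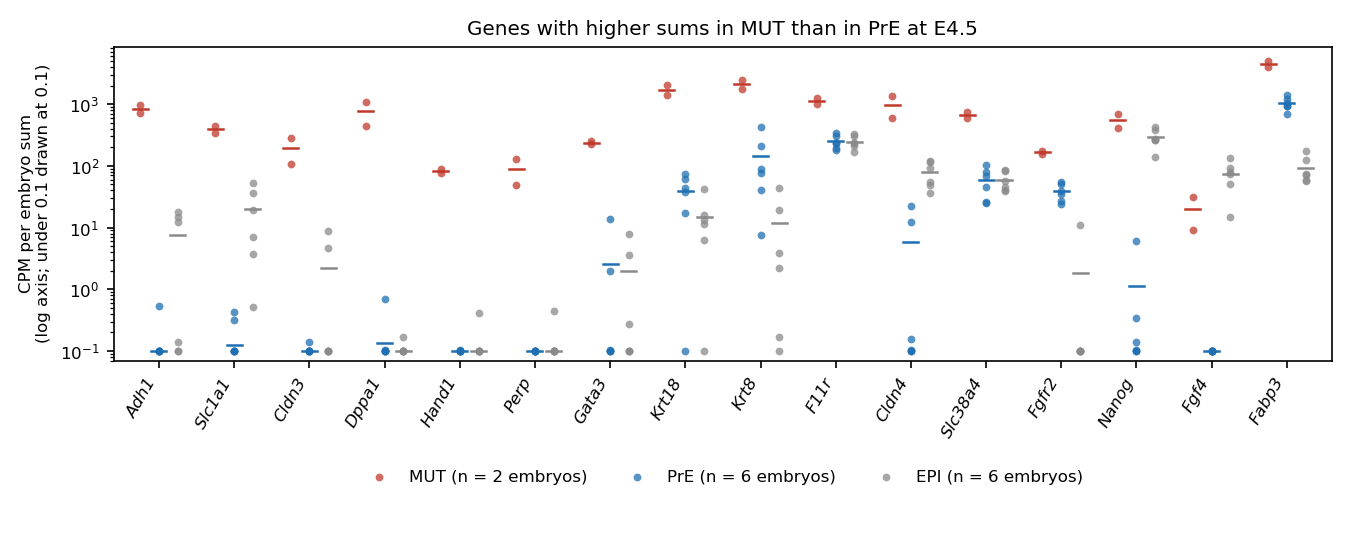
Level of 16 genes whose MUT sums lie above all PrE sums, in each embryo sum at E4.5 (vertical axis, CPM on a log scale, values under 0.1 drawn at 0.1) for MUT (2 embryos), PrE (6) and EPI (6). Points are embryos and bars are group means. Dppa1, Hand1 and Perp are near 0 in both PrE and EPI, whereas Nanog and Fgf4 are near 0 in PrE and present in EPI.

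Junction and keratin genes of epithelia were higher in MUT where they passed the test. Of 20 listed, 6 were higher in MUT than in PrE and none lower (backgrounds 1.74% and 2.07%, median log2 fold change 3.75), and 9 were higher against the whole ICM. Their summed level was 7834 and 7977 CPM in MUT, 1224 to 2069 in PrE and 715 to 1091 in EPI. F11r, the junctional adhesion molecule JAM-A, had 1016 and 1268 CPM in MUT and 346, 180, 235, 196, 306 and 239 in PrE (2.19 ± 0.25, adjusted p = 0.00135). F11r and Cldn3, the latter a given marker of these cells, were the 2 whose call held in all 8 fits that leave out 1 embryo. Perp, a desmosome protein, had 49.2 and 130 CPM in MUT and none in PrE (adjusted p = 0.0146, and 0.0573 and 0.143 without MUT embryo 3 and 8). Krt18, a keratin of simple epithelia, had 1384 and 2015 CPM in MUT and 0 to 74.8 in PrE (5.43 ± 1.07, adjusted p = 0.0232). The call was lost without MUT embryo 3 or 8 or PrE embryo 2 or 5 (adjusted p 0.0523 to 0.0873). Its partner Krt8 had 1743 and 2457 CPM in MUT and 7.48 to 434 in PrE and missed the threshold (adjusted p = 0.0569, and 0.0364 and 0.0219 without PrE embryo 5 and 6), but passed against the whole ICM (5.12, adjusted p = 0.012). Cldn4 (1336 and 589 CPM in MUT, 0 to 22.5 in PrE, adjusted p = 0.0438) and Cldn7 (235 and 520 CPM in MUT, 48.5 to 170 in PrE, adjusted p = 0.0432) stood close to the threshold. Both calls were lost without either MUT embryo (adjusted p 0.0752 to 0.309), that of Cldn4 also without PrE embryo 1, 2, 4, 5 or 7 and that of Cldn7 without 1, 2, 5 or 7 (0.0623 to 0.0918). Cldn6 (418 and 635 CPM on average) and Jup (112 and 124) did not pass.

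Of 25 TE genes, 20 were tested, 4 were higher and 1 lower in MUT than in PrE, and 9 were higher and 1 lower against the whole ICM (median log2 fold change against PrE 4.39, backgrounds 1.74% higher and 2.07% lower, or 3.1% and 4.27% against the whole ICM). Dppa1, whose values are above, had the largest change of the 4 (adjusted p = 8.38e-05). Hand1, a helix-loop-helix factor of trophoblast giant cells, had 89.2 and 76.7 CPM in MUT and 1 count in PrE (adjusted p = 0.000708), in 7 of 19 MUT cells. Fabp3 had 3940 and 4916 CPM in MUT, 685 to 1383 in PrE and 92.9 ± 46.1 in EPI (2.09 ± 0.22, adjusted p = 0.00114). The tetraspanin Tspan8 had 9.11 and 133 CPM in MUT, of which 1 cell held 79.6% (adjusted p = 0.00606, 0.23 without MUT embryo 8 and 0.052 without PrE embryo 5). Gata3, a TE transcription factor, had 249 and 223 CPM in MUT and 13.6, 1.96, 0, 0.105, 0 and 0 in PrE. It did not pass against PrE (adjusted p = 0.0692, and 0.0122 without PrE embryo 1) and did against the whole ICM (6.35, adjusted p = 0.0205). Likewise Lcp1, an actin-bundling protein, had 796 and 795 CPM in MUT against 0 to 39.9 in PrE (adjusted p = 0.0513, and 0.0281 without PrE embryo 7), and passed against the whole ICM (adjusted p = 0.00136). Gata2, a GATA factor of the TE, had 102 and 68.7 CPM in MUT and 0 to 6.75 in PrE (5.90 ± 1.69, adjusted p = 0.0848, 0.0323 without PrE embryo 4 and 0.0378 against the whole ICM). Cdx2 averaged 12 CPM in MUT and Elf5 12.7, neither past the test against PrE, and Elf5 passed against the whole ICM (adjusted p = 0.0395). Plac1, a placental gene on the X chromosome, went the other way with 0 and 1.27 CPM in MUT and 64.1 to 188 in PrE (adjusted p = 0.018). Whether TE cells left after immunosurgery add to these levels was not tested. Of the 15 MUT cells with Gata3 at 10 CPM or more, 8 also had Nanog at that level, and 11 of the 18 with Krt8 did, beside 12 of all 19 MUT cells.

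Transport genes changed in both directions. Of 15 amino acid transporters, 14 were tested, 2 were higher and 4 lower (backgrounds 1.74% and 2.07%). Slc1a1 and Slc38a4, a carrier of neutral and cationic amino acids, were higher (Slc38a4 743 and 607 CPM against 25.4 to 104, 3.55 ± 0.47, adjusted p = 0.00381). Slc7a1, the arginine transporter CAT1, was lower at 14.1 and 14.2 CPM against 165, 153, 165, 141, 143 and 106 in PrE (−3.36 ± 0.35, adjusted p = 0.000912). Slc1a5, the glutamine transporter ASCT2, had 19.7 and 31 CPM against 149 to 274 (−2.99 ± 0.38, adjusted p = 0.00267), and the glutamate transporter Slc1a3 0.923 and 4.58 CPM against 97.5 to 199 (−5.67 ± 0.77, adjusted p = 0.00413). The levels of the last 3 were also below the EPI means of 52.9, 120 and 20.8 CPM, and that of Slc1a5 passed the test against EPI (adjusted p = 0.0132). Slc38a2 was lower as well (adjusted p = 0.0231, and 0.116 and 0.177 without MUT embryo 3 and 8). Slc7a6 had 131 and 604 CPM in MUT against 843 to 1060 (adjusted p = 0.145, and 0.00197 without MUT embryo 8). Of 18 genes of retinoid handling, 12 were tested, with Adh1 higher and Stra6 lower, and the related dehydrogenase Adh5 overlapped (182 and 138 CPM against 105 to 288, adjusted p = 0.918). Adh1 here and Slc1a1 among the transporters were given markers of these cells.

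Of 24 EPI and pluripotency genes, 21 were tested, 2 were higher and 3 lower in MUT than in PrE (backgrounds 1.74% and 2.07%). Nanog and Dppa5a were higher, the latter at 10490 and 8090 CPM against 2133 to 3896 (1.64 ± 0.25, adjusted p = 0.00711, and 0.0687 without MUT embryo 3). Besides Pou5f1, Utf1, a chromatin factor of pluripotent cells, had 19 and 5.94 CPM in MUT, 155 to 308 in PrE and 502 ± 154 in EPI (−3.93 ± 0.57, adjusted p = 0.00578). Gdf3, a ligand of the TGF-beta family, had no count in MUT, 2.12 to 62.5 CPM in PrE and 227 ± 72.1 in EPI (adjusted p = 0.0255, and 0.157, 0.115 and 0.0542 without MUT embryo 3, MUT embryo 8 and PrE embryo 4). Both genes were below PrE as well as EPI.

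Among the other genes present in MUT and absent from PrE, the highest were Pramel6, a PRAME family gene of the preimplantation embryo (178 and 275 CPM in MUT, 1 count in PrE), the sodium-calcium exchanger Slc24a5 (160 and 278, 3 counts), Trim43a (224 and 202, 2 counts), the tetraspanin Tspan15 (132 and 98.9, 4 counts), the zinc transporter Slc39a2 (93.1 and 285, no count), Trim43b (100.3 and 76.6, no count), the orphan receptor Gpr161 (78.2 and 78.0, no count) and the adhesion protein Ceacam1 (208 and 68.0, no count). The calls of Gpr161 and Trim43b were lost without MUT embryo 3 (adjusted p = 0.105 and 0.107) or 8 (0.0901 and 0.0667), that of Ceacam1 without 3 (0.126) and that of Slc39a2 without 8 (0.0723). Trim43a, Slc39a2, Trim43b, Gpr161 and Ceacam1 did not pass against the whole ICM (adjusted p = 0.104, 0.088, 0.0582, 0.0901 and 0.0588). Trim43a, Trim43b and Pramel6 belong to families of near-identical copies, and read pairs with more than 1 alignment were not counted, so the split between copies is uncertain. Of the 44 calls, 14 held in all 8 fits that leave out 1 embryo, 27 in all 6 that leave out a PrE embryo, 16 without MUT embryo 3 and 15 without MUT embryo 8.

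**Figure D5:**
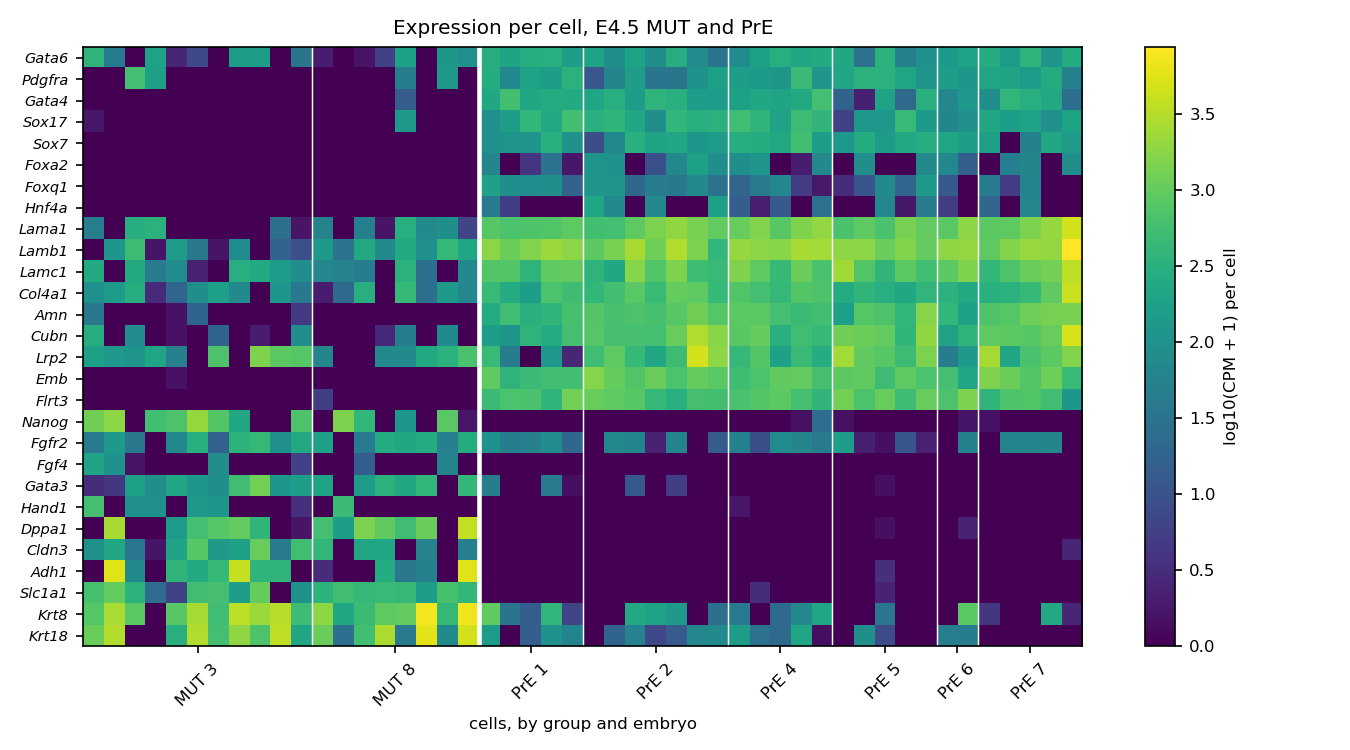
Level of 28 genes (rows) in each of the 19 MUT and 29 PrE cells (columns, grouped by embryo, thin lines between embryos and a thick line between groups). Colour gives log10(CPM + 1), without normalization between cells. Sox7 and Hnf4a are empty in all 19 MUT cells, and Adh1, Cldn3 and Dppa1 in nearly all of the 29 PrE cells.

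Single MUT cells held genes of several lineages at once. Of the 9 MUT cells with Gata6 at 10 CPM or more, 6 had Gata3 at that level and 7 had Nanog, beside 15 and 12 of all 19 MUT cells. Of the 9 with Lama1 at 10 CPM or more, 4 had Gata6 and 5 had Nanog, beside 9 and 12 of all 19. Whether these genes co-occur more or less often than their own frequencies give was not tested. Of the 21 basement membrane genes, a MUT cell held a median of 11 (range 6 to 18) at 10 CPM or more, a PrE cell 18 (12 to 21) and an EPI cell 10 (6 to 14). Slc1a1 was the given marker found most evenly, at 10 CPM or more in 17 of 19 MUT cells with a median of 425 CPM in these. Dppa1 was at that level in 13 MUT cells, Cldn3 in 15 and Adh1 in 12, and in none of 29 PrE cells. Of 37 EPI cells, Slc1a1 was at that level in 13, Adh1 in 4, Cldn3 in 3 and Dppa1 in 0. In the edgeR test of MUT against EPI, Slc1a1 and Cldn3 did not pass (adjusted p = 0.054 and 0.0723). Adh1 and Dppa1 did (adjusted p = 0.0361 and 8.52e-06).

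The promoters of the missing genes, of the present genes and of some lists were searched for the letters bound by GATA and SOX factors. For GATA these were AGATAA and AGATAG, and the same with T as the first letter, TGATAA and TGATAG. For SOX they were ACAAT. Both strands were searched, in the RefSeq windows of 300 bases around the start of each gene on GRCm38. Where a gene had several listed starts, only the first listed window was searched. Of the 25 genes missing in MUT, 19 matched a window, and 6 of these (31.6%) held a GATA match and 6 (31.6%) a SOX match, beside 30.2% and 31.6% of all 27025 windows. Of the 44 genes present in MUT and absent from PrE, 32 matched and 13 (40.6%) held a GATA and 10 (31.2%) a SOX match. Of the 21 basement membrane genes 17 matched, of which 1 (5.88%), Plod3, held a GATA and 2 (11.8%) a SOX match, and of the 8 PrE factors only 2 matched a window, 1 of which held both. The letters are a description of these windows, not sites of binding. Parts of 3 windows, chosen because they hold a match, are shown 5′ to 3′ on the gene's strand, with matches in capitals: a regulator and a collagen enzyme of PrE and the TE gene with the largest change.
Hnf4a, chr2:163506703-163506830, plus strand: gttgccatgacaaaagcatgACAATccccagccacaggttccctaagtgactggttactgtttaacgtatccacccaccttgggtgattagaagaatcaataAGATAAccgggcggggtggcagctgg
Plod3, chr5:136986993-136987018, plus strand: ctttcgctttccgccatcttTGATAG
Dppa1, chr11:46629318-46629432, minus strand: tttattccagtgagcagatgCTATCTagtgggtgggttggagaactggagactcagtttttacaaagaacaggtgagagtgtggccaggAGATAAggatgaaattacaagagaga
In Hnf4a the GATA match begins 52 bases and the SOX match 134 bases before the first listed of its 2 RefSeq starts. In Plod3 the GATA match begins 6 bases before the start, and in Dppa1 the 2 GATA matches 138 and 69 bases. All 3 hold a GATA match because they were chosen so. Of these, Plod3 was lower in MUT than in PrE (15.2 ± 4.6 against 266 ± 91.9 CPM) and Dppa1 higher (763 ± 460 against 0.133 ± 0.278 CPM). Hnf4a (0 in MUT, 1.73 to 79.1 CPM in PrE) did not pass the test.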

How the data were processed

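Single E4.5 ICM cells were profiled by Smart-seq2. Per the study's methods, the authors aligned 125-bp read pairs to GRCm38 with STAR and counted them per Ensembl gene with htseq-count after removing inadequate cells. The deposited values are raw counts per gene and cell, without normalization. Read pairs outside genes (4.72% over all cells), in overlapping genes (8.65%) or with several alignments (32.3%) stayed out of the counts used here. Genes were matched to GENCODE (Ensembl release 96, GRCm38): 49412 of 49671 had a symbol. No cell repeated another.

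Genotype and lineage come from the labels, and the embryo of each cell from the authors' sample sheet, keyed by cell title. Embryos are separate animals. Embryo sums passed filterByExpr and TMM and went into the quasi-likelihood fit in edgeR 4.0.16 (R 4.3.3, limma 3.58.1), with Benjamini-Hochberg adjustment over all tested genes and a threshold of 0.05. Fits without 1 MUT embryo assume that the lone MUT embryo varies like PrE. CPM uses TMM factors over the 14 E4.5 sums, and log2 values a prior count of 2. Bounds use a floor of 3 counts over the group and shares of all counts. Cell shares were compared by exact permutation of embryos. Exact binomial intervals are 95%. The fits were tested on simulated data with known changes, drawn with the same spread in MUT and PrE. This cannot show how the calls behave where MUT embryos vary otherwise than PrE.

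Named were Pou5f1, the given markers, the PrE factors with Pdgfra, Fgf4, Fgfr1, Fgfr2 and Nanog, of each other list the called genes with the 4 smallest adjusted p per direction and the highest gene not called, the 10 largest calls in each direction among genes with groups apart and 20 CPM or more, the 10 highest of the missing and of the present genes, and the 10 highest PrE-enriched genes over position 0.75. Genes without a symbol and predicted genes were left out of the last 3 rules. Some list members are counted with their list but not reported here by name. Other genes were named after their values were seen. Members and lists were chosen with earlier results of these data known. EPI and PrE sums of an embryo come from the same animal and are thus paired (correlations of their deviations 0.0116 to 0.0646, own embryo highest in 5 of 6). Genes higher in PrE than in EPI were taken from the fit without embryo as a block, and the blocked fit is among the alternatives. MUT shares no embryo with them. Alternatives were DESeq2 1.42.0, its size factors, other filters, limma-trend on cell means, WT controls only, 3 groups in 1 fit, 2 shallow cells left out, other thresholds and each embryo left out.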

Additional observations from a re-analysis of the deposited data

Results flagged for a closer look

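For each of the 86 named genes, the highest and the lowest of the 6 PrE sums were compared with the others on the log2 scale. By Dixon's criterion, chance gives about 1 in 20 groups of normal values. A sum above 0 with all others at 0 stands apart by construction, so that rate is no measure for such genes. In 18 genes (20.9%) one sum stood apart. In 9 of these genes the sum that stood apart was close to 0 and the others were at or near 0: Adh1 (0.527 CPM in embryo 5), Cldn3 (0.14 in embryo 7), Dppa1 (0.693 in embryo 6), Hand1 (0.105 in embryo 4), Tspan8 (0.211 in embryo 5), Pramel6 (0.347 in embryo 6), Pla2g10 (0.0785 in embryo 2), Slc24a5 (0.236 in embryo 2) and Tspan15 (0.314 in embryo 2). Nanog stood at 6.12 CPM in embryo 4, where 93.4% of all PrE counts of the gene lay in 1 cell, against at most 0.347 in the others.

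PrE embryo 6, the sum of only 2 cells, was highest for Egr1 (571 CPM, next 175) and Plac1 (188, next 88.0) and lowest for Slc2a3 (426, next 1111). Embryo 7 was highest for Bsg (1020 CPM, next 773) and lowest for Krt18 (0, next 17.3) and Slc7a1 (106, next 141). Embryo 5 was highest for Utf1 (308 CPM, next 178) and had no Eif2s3y counts (0, next 36). Of these 8 genes, the MUT sums lay outside the PrE range in Krt18, Slc7a1, Plac1, Utf1 and Slc2a3.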

How the results depend on the processing

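Of the named genes none changed direction past the threshold under any alternative run. The counts moved more. In MUT against PrE, DESeq2 gave 443 genes higher and 781 lower, shared 190 of the 213 and 253 of the 253 calls of edgeR, and left 1327 genes without an adjusted p. Limma-trend on the mean of cells gave 506 and 591. With the 2 WT embryos as the only PrE controls 18 and 9 were left, with fewer samples tested. Leaving out 1 embryo gave 66 to 232 higher and 103 to 302 lower (66, 76 and 133 higher without MUT embryo 3, MUT embryo 8 and PrE embryo 2, and 103 lower without MUT embryo 3). At an unadjusted p under 0.05 there were 2015 genes. The 23 PrE programme genes lower in MUT became 40 with DESeq2, 4 with WT controls only and 13 to 29 with 1 embryo left out (13 without MUT embryo 3). The 4 TE genes higher in MUT became 7 with DESeq2, 10 with limma-trend, 7 without a filter and 3 to 5 with 1 embryo left out. The 25 missing genes became 6 with presence from 50 CPM and 28 to 57 with 1 embryo left out (41 and 57 without MUT embryo 3 and 8), and the 44 present genes 22 and 17 to 52 (19 and 17). Since fewer sums then have to meet the limits, the first of these counts can rise by construction. Genes higher in PrE than in EPI were 781 with DESeq2, 358 to 500 with 1 embryo left out and 450 with embryo as a replicate block, the only comparison in which groups share embryos. Against the whole ICM, 1039 genes were called, 2407 with DESeq2 and 524 to 1061 with 1 embryo left out (524 without MUT embryo 3). Of the 60 named genes that passed, 37 did so in all 8 fits that leave out 1 embryo. With 2 MUT embryos, 1 embryo decided the call of several genes: Sox17, Hnf4a and Krt8 missed the threshold in edgeR and passed with an embryo left out (adjusted p = 0.00587 without MUT embryo 8, 0.0283 without PrE embryo 6, and 0.0364 and 0.0219 without PrE embryo 5 and 6).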
